A study of Rattus norvegicus with 9 samples.

Results

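Autophagy and its control by mTOR and AMPK were followed in rat kidney through 39 genes, chosen by the gene names that the array files give their probes. Of these, 22 belong to the core machinery of autophagosome formation, 8 are cargo receptors or mitophagy genes and 9 are nutrient-signalling genes. All 39 had a gene probe among the 26115 gene names on the array, and 36 of them had a probe that passed the filter on dim probes, against 13935 genes tested in all. Uvrag and Tsc1 were among the 3 members without such a probe.

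Each array measured 1 kidney of a Fisher F344 rat as a model of donation after circulatory death. Every kidney, controls included, had 20 min. of warm ischaemia before it was removed. The 5 NP kidneys were not perfused according to the treatment field and the study's methods, although the titles of the same arrays name 4 hrs of perfusion with Belzer solution, so that the labels are divided on the controls. The 4 MSC kidneys were perfused for 4 hrs at 4°C with Belzer solution to which mesenchymal stromal cells had been added, grown from Sprague Dawley rats that carry an EGFP transgene. If the NP kidneys were not perfused, the groups differ in perfusion, in the time before sampling and in the MSC together, and these cannot be told apart. If the titles hold, they differ in the MSC alone. In whole kidney, fewer cells of a type and less RNA per cell cannot be told apart either.

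Autophagy encloses cytoplasm in a double membrane and delivers it to the lysosome. The ULK kinases start the process, a phosphatidylinositol 3-kinase complex marks the membrane, and the ATG16L1 complex attaches proteins of the ATG8 family (LC3 and GABARAP) to it, where cargo receptors bind. AMPK, which senses a fall in ATP, switches ULK1 on, and mTOR complex 1, which senses amino acids and growth factors, holds it off. Tubules of the kidney depend on autophagy to clear damaged mitochondria after ischaemia. Arrays read only RNA, so that the lipidation of LC3, the phosphorylation of ULK1 and the flux through the pathway were not measured.

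No autophagy gene was called between MSC and NP kidneys. In the limma fit across all genes, 0 of the 36 members passed a false discovery rate (FDR) of 0.05, with or without a fold change over 1.5, and the same held for 0% of the 13935 genes. At an unadjusted p under 0.05 from limma, 2 members were higher in MSC (Prkag1 and Fundc1), which is 5.56% of those tested, against a background of 6.57% of all genes. In the other direction 2 members were lower (Atg16l1 and Wipi2), again 5.56%, against a background of 5.1%. All MSC arrays lay above all NP arrays for 1 member, Prkag1, and below them for 1 member, Atg16l1. Over all genes tested such a gap between the groups was found for 3.16% upwards and for 2.12% downwards. The shares of members thus lay near the shares of all genes. The background itself moved with the scaling, from 916 higher and 711 lower genes to 287 and 567 when arrays were scaled to a common median.

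The differences themselves were small. Log2 fold changes of the members (MSC minus NP) ran from -0.45 for Optn to 0.42 for Gabarapl2, with a median of 0.05, against a median of -0.006 over all genes tested. Values above 0 were found for 22 of the 36 members, or 61.1%, against 48.5% of all genes. By role, the median was 0.04 over 21 core genes, -0.05 over 7 receptor and mitophagy genes and 0.08 over 8 nutrient-signalling genes. The 95% interval of the fold change lay within 1.5-fold in both directions for 31 of the 36 members (86.1%), as it did for 77.8% of all genes. The 5 members whose intervals reached further were Gabarapl1, Gabarapl2, Wipi2, Optn and Prkaa2, so that larger changes of these remained within the error. Leaving out 1 array or another moved the log2 fold change by over 1.5 times, or turned its sign, for 27 of the 36 members (75%), as it did for 79.5% of all genes. The sign turned for 6 members (16.7%), against 34.2% of all genes.

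**Figure D1:**
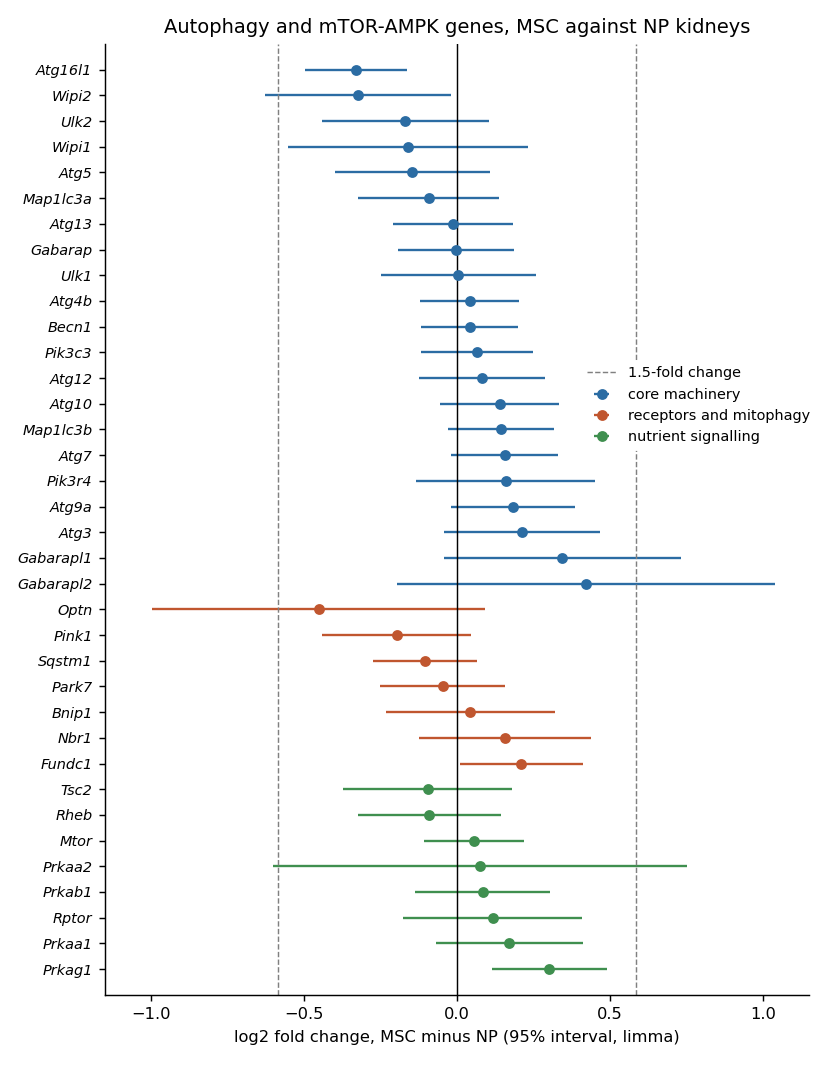
Log2 fold change (MSC minus NP) of the 36 members that passed the filter, with the 95% interval from limma, coloured by role and ordered by value within a role; dashed lines mark a 1.5-fold change. Most intervals cross 0 and lie between the dashed lines, those of Atg16l1 and Wipi2 lie below 0, and those of Fundc1 and Prkag1 lie above 0.

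The probes of the 4 members past the unadjusted threshold were 60-base oligonucleotides, shown here so that each reading can be traced to a stretch of transcript, with positions on the rat build rn4 as the files give them. Wipi2's probe spans more genome than its own length. The sequences in lower case read 5′ to 3′.
Atg16l1, probe A_44_P804200, chr9:86747079-86747138, plus strand: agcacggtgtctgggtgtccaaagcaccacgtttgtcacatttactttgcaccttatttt
Wipi2, probe A_44_P1024739, chr12:12306841-12307520, minus strand: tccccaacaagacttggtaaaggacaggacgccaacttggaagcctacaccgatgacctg
Fundc1, probe A_44_P181464, chrX:16688597-16688656, plus strand: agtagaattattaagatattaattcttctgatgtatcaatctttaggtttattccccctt
Prkag1, probe A_44_P337094, chr7:137583141-137583200, minus strand: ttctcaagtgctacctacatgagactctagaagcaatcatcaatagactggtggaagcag

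Among the initiation kinases, whose activity opens the pathway, no member separated the groups. Ulk1 had a log2 fold change of 0.00 (95% interval -0.25 to 0.26), and its partner Atg13 one of -0.01 (-0.21 to 0.18). Ulk2, a kinase related to Ulk1, had -0.17 (-0.44 to 0.10). Of the lipid kinase complex that follows them, the log2 fold change was 0.04 for Becn1 (Beclin 1), 0.07 for the catalytic subunit Pik3c3 and 0.16 for the regulatory subunit Pik3r4 (95% interval -0.13 to 0.45, and 0.06 without NP replicate 2). Uvrag, another Beclin 1 partner, failed the filter. Its only probe was well above background on 5 of 5 NP arrays and on 2 of 4 MSC arrays, and its log2 fold change without a filter was -0.46 (95% interval -0.78 to -0.14, limma FDR 0.390 over 26115 genes).

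Both effectors that bind the lipid made by this kinase had log2 fold changes below 0, as they did under each other scaling. Wipi2, which recruits ATG16L1 to the forming membrane, gave log2 intensities of 11.58, 11.97, 11.83, 11.58 and 11.65 on NP arrays 1 to 5 and of 11.05, 11.69, 11.38 and 11.48 on MSC arrays 1 to 4. MSC replicate 1 was the lowest and MSC replicate 2 overlapped the NP range. The log2 fold change was -0.32 (standard error 0.14, limma FDR 0.409), and it was -0.21 without MSC replicate 1. For Wipi1 it was -0.16 (95% interval -0.55 to 0.23), with NP replicate 2 the highest at 11.01, and -0.01 without that array.

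Atg16l1, the scaffold that places the conjugation enzymes on the membrane, was the member with the smallest p. It read 11.67, 11.81, 11.81, 11.85 and 11.66 on the NP arrays and 11.38, 11.38, 11.49 and 11.47 on the MSC arrays. Every MSC array was below every NP array, on both slides. The log2 fold change was -0.33 (standard error 0.08, 95% interval -0.50 to -0.16, limma FDR 0.334), a fold change of 0.795, and it was -0.38 within slide 1 and -0.28 within slide 2. Leaving out each array in turn gave -0.35 to -0.31. A second Atg16l1 probe, A_64_P023541, was well above background on all 9 arrays but under the filter and had a log2 fold change of 0.02 (standard error 0.08), so that the difference rests on 1 probe. With the background-subtracted signal of the scanner software, where that second probe stood for the gene, Atg16l1 had -0.13.

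**Figure D2:**
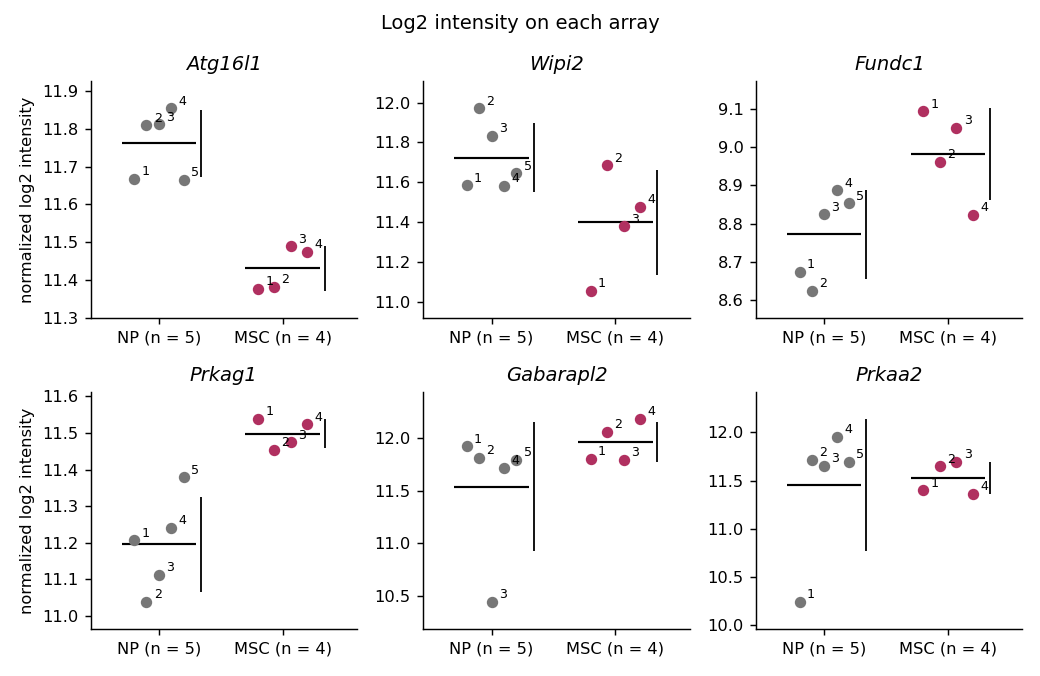
Normalized log2 intensity on each array for 6 members, with replicate numbers beside the points, group means as horizontal lines and the SD as vertical lines; each panel has its own range and the axes do not start at 0. Atg16l1 and Prkag1 separate the groups, Wipi2 and Fundc1 overlap, and 1 NP array stands far below the rest for Gabarapl2 (replicate 3) and for Prkaa2 (replicate 1).

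The other genes of conjugation had log2 fold changes from -0.15 to 0.21. Atg7, the E1-like enzyme of both conjugation reactions, read 10.50, 10.47, 10.50, 10.39 and 10.51 on NP and 10.58, 10.67, 10.49 and 10.77 on MSC. Only MSC replicate 3 fell within the NP range. Its log2 fold change was 0.16 (standard error 0.08, limma FDR 0.478). The same measure was 0.21 for Atg3, the E2-like enzyme for ATG8 proteins, 0.14 for Atg10, the E2-like enzyme for ATG12, 0.08 for Atg12 itself, 0.04 for the protease Atg4b and -0.15 for Atg5, to which ATG12 is joined. None of these passed an unadjusted p of 0.05 in limma. A second Atg10 probe gave the same log2 fold change of 0.14 with its 4 MSC arrays (9.42 to 9.58) above its 5 NP arrays (9.25 to 9.38) and a limma FDR of 0.463 over all probes. Atg5's other probe pointed the other way, with 0.12 (standard error 0.06).

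Atg9a, the membrane protein of the vesicles that seed the autophagosome, also turned with the probe. The probe kept read 8.70, 8.74, 8.76, 8.84 and 9.03 on NP and 8.95, 8.89, 9.08 and 9.07 on MSC. MSC values were mostly higher, with NP replicate 5 among them, and the log2 fold change was 0.18 (standard error 0.09, limma FDR 0.470). This probe was dim, over the filter's threshold on 7 of 9 arrays. The other probe of Atg9a, with means of 14.18 in NP and 14.12 in MSC, had -0.06 (standard error 0.05).

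The ATG8 proteins, which line the membrane and hold the cargo receptors, gave log2 fold changes from -0.09 to 0.42. Map1lc3a (LC3A) read 16.12, 15.71, 15.81, 16.01 and 15.95 on NP and 15.96, 15.73, 15.90 and 15.72 on MSC. All MSC values lay within the NP range, and the log2 fold change was -0.09 (standard error 0.10), or -0.04 without NP replicate 1. Gabarap read 16.80, 16.73, 16.70, 16.76 and 16.75 on NP and 16.90, 16.84, 16.67 and 16.57 on MSC. Its MSC arrays lay on both sides of the NP arrays, so that the difference was 0.00, with 0.13 within slide 1 and -0.14 within slide 2. For Map1lc3b (LC3B), the form most used as a marker of autophagosomes, the log2 fold change was 0.14 (95% interval -0.03 to 0.32), and a second probe gave -0.02 (standard error 0.04).

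The largest positive values among the members, those of Gabarapl1 and Gabarapl2, hung on 1 NP array. Gabarapl1 read 14.35, 14.30, 13.52, 14.22 and 14.47 on NP and 14.58, 14.57, 14.54 and 14.37 on MSC. Gabarapl2 read 11.92, 11.81, 10.45, 11.72 and 11.79 on NP and 11.80, 12.06, 11.79 and 12.18 on MSC. For both genes NP replicate 3 was far below all other arrays. The log2 fold change of Gabarapl1 was 0.34 (95% interval -0.04 to 0.73) and became 0.18 without NP replicate 3. That of Gabarapl2 was 0.42 (-0.20 to 1.04) and became 0.15 without it. On the other probes NP replicate 3 did not stand as far apart: Gabarapl1's second probe read 18.04 there against 18.10 to 18.41 on the other NP arrays, with a log2 fold change of 0.08, and Gabarapl2's read 15.72 against 15.55 to 15.99, and 14.72 against 14.48 to 14.75, with 0.15 and 0.16.

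**Figure D3:**
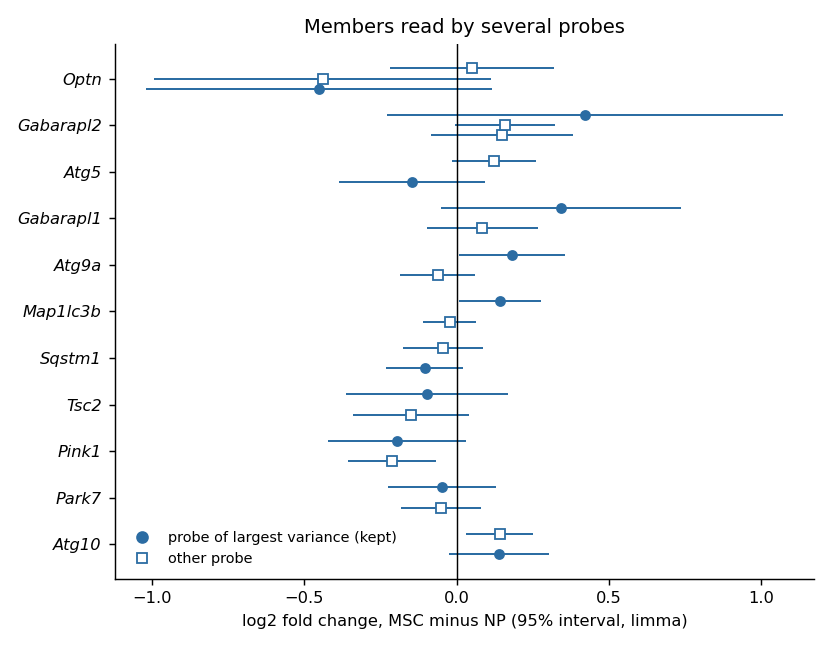
Log2 fold change (MSC minus NP) of each passing probe of the 11 members with more than 1, with the 95% interval from a limma fit of the probes singly; filled circles are the probes of largest variance, which stand for the gene, and open squares the others. Optn, Atg5, Atg9a and Map1lc3b have probes on both sides of 0, and the kept probes of Gabarapl1 and Gabarapl2 lie to the right of their other probes with wider intervals.

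Of the cargo receptors, which tie ubiquitin-tagged material to the ATG8 proteins, Optn (optineurin) had the widest spread. It read 12.46, 13.17, 12.93, 12.19 and 12.21 on NP and 12.45, 12.50, 11.69 and 11.92 on MSC. NP replicates 2 and 3 were the highest, MSC replicates 3 and 4 the lowest, and the other arrays lay together between them. The log2 fold change was -0.45 (95% interval -0.996 to 0.09, limma FDR 0.497), and leaving out each array in turn gave -0.57 to -0.30, with -0.30 without MSC replicate 3. MSC replicates 3 and 4 also had the highest mean level of perirenal fat markers, and the part of this in the Optn value was not tested. Without both of them the log2 fold change of Optn was -0.12, a shrinkage fixed by their being the lowest arrays. They are also all the MSC arrays of slide 2, so that fat level and slide cannot be told apart.

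Optn had 3 passing probes, shown here because they disagreed. Capitals mark the 12 bases that the first and second share, and the third begins 1641 bases after the second on rn4.
Optn, probe A_64_P147913, chr17:84346447-84346506, plus strand: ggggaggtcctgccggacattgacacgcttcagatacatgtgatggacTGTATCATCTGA
Optn, probe A_64_P136046, chr17:84346495-84346554, plus strand: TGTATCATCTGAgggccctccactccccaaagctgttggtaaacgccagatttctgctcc
Optn, probe A_44_P463530, chr17:84348136-84348195, plus strand: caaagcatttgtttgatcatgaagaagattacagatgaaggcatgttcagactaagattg
The overlapping pair gave log2 fold changes of -0.45 and -0.44, each with NP replicate 2 highest and MSC replicate 3 lowest. The third gave 0.05 (standard error 0.12), and its values of 10.91 to 11.31 on NP and 10.94 to 11.38 on MSC covered the same range. The overlapping pair reads adjoining sequence and is not made of separate readings of the gene.

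Sqstm1 (p62), the receptor that is itself degraded by autophagy, read 13.97, 13.85, 13.96, 14.11 and 13.92 on NP and 13.91, 13.81, 13.89 and 13.82 on MSC. The groups overlapped narrowly, with a log2 fold change of -0.10 (standard error 0.08, limma FDR 0.608). Nbr1, a receptor related to p62, read 11.06, 11.37, 11.60, 11.62 and 11.67 on NP and 11.63, 11.62, 11.70 and 11.54 on MSC. Its difference of 0.16 came mostly from NP replicate 1, without which it was 0.06.

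The mitophagy genes, which mark damaged mitochondria for removal, pointed in different directions. Pink1, the kinase that accumulates on depolarized mitochondria, read 15.74, 15.54, 15.64, 15.84 and 15.99 on NP and 15.56, 15.41, 15.74 and 15.50 on MSC. The ranges overlapped, and the log2 fold change was -0.20 (standard error 0.11, limma FDR 0.508). A second Pink1 probe gave -0.21 (standard error 0.06), with 16.72 to 16.97 on NP, 16.57 to 16.77 on MSC and a limma FDR of 0.380 over all probes, so that both probes gave a like size and neither passed the FDR. The unadjusted p of that second probe was 0.00895 in a limma fit of the probes singly.

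Park7 (DJ-1), a redox-sensitive protein that acts beside PINK1, read 16.92, 16.71, 16.91, 16.79 and 16.66 on NP and 16.91, 16.78, 16.68 and 16.63 on MSC. The groups covered nearly the same range, with a log2 fold change of -0.05 (standard error 0.09). Fundc1, an outer-membrane receptor of mitophagy under low oxygen, read 8.67, 8.62, 8.82, 8.89 and 8.85 on NP and 9.09, 8.96, 9.05 and 8.82 on MSC. MSC replicate 4 lay within the NP range and the other MSC arrays above it. Fundc1's only probe was dim, over the filter's threshold on 7 of 9 arrays and under it on NP replicates 1 and 2. Its log2 fold change was 0.21 (standard error 0.09, limma FDR 0.415), with 0.32 within slide 1 and 0.07 within slide 2. Bnip1, a protein of the same group on this list, had 0.04 (95% interval -0.23 to 0.32).

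The AMPK subunits had values on both sides of 0. The 4 among the members had log2 fold changes above 0, as had 48.5% of all genes, and kept that sign under each other scaling, but Prkaa2 was at -0.16 with array weights and at -0.29 within slide 2. Of the subunits outside the member list, the scaffold subunit Prkab2 had -0.35 (standard error 0.18, limma FDR 0.486), which is larger in size than any of the 4 and below 0 under each other scaling, and the regulatory subunit Prkag2 had 0.06 (standard error 0.12). Among the members the regulatory subunit Prkag1, which binds AMP and ATP, had the largest value. It read 11.21, 11.04, 11.11, 11.24 and 11.38 on NP and 11.54, 11.46, 11.47 and 11.52 on MSC. No array of one group entered the range of the other, although NP replicate 5 came close. The log2 fold change was 0.30 (standard error 0.08, 95% interval 0.12 to 0.49, limma FDR 0.335), a fold change of 1.23, with 0.38 within slide 1 and 0.19 within slide 2. Leaving out each array in turn gave 0.26 to 0.35.

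The catalytic subunit Prkaa1 read 9.54, 9.10, 9.50, 9.44 and 9.41 on NP and 9.73, 9.61, 9.52 and 9.43 on MSC, a log2 fold change of 0.17 (standard error 0.11, limma FDR 0.551). NP replicate 2 was the lowest array, and without it the value was 0.10. The scaffold subunit Prkab1 read 15.09, 15.13, 14.87, 14.75 and 15.05 on NP and 15.15, 15.13, 14.98 and 14.98 on MSC. Its difference of 0.08 (standard error 0.10) was within the spread between replicates and was 0.03 without NP replicate 4. Prkaa2, the other catalytic subunit, had the largest spread of all members. It read 10.25, 11.72, 11.66, 11.95 and 11.70 on NP and 11.40, 11.65, 11.70 and 11.37 on MSC, and NP replicate 1 alone set its sign, since the log2 fold change of 0.07 (95% interval -0.60 to 0.75) became -0.23 without that array. NP replicate 1 also had the lowest mean level of proximal tubule markers, 0.32 below the mean of the arrays on the log2 scale, and the part of this in the Prkaa2 value was not tested. With NP replicate 1 left out, 3 of the 4 AMPK members remained above 0.

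On the mTOR side, Mtor itself had a log2 fold change of 0.06 (95% interval -0.11 to 0.22). Rptor (raptor), the subunit that presents substrates to mTOR complex 1, read 13.17, 13.35, 13.06, 13.14 and 13.28 on NP and 13.01, 13.34, 13.22 and 13.69 on MSC. Its MSC arrays lay on both sides of the NP range, and the difference of 0.12 became -0.01 without MSC replicate 4. Rheb, the small GTPase that switches mTOR complex 1 on, read 14.27, 14.13, 13.92, 13.89 and 13.97 on NP and 14.05, 14.03, 13.95 and 13.75 on MSC, a log2 fold change of -0.09 (standard error 0.10), which was -0.03 without MSC replicate 4. Of the TSC complex, which holds Rheb off, Tsc2 had -0.10 (95% interval -0.37 to 0.18), and a second probe gave -0.15. Tsc1 failed the filter, being well above background on 5 of 5 NP and 1 of 4 MSC arrays, with a log2 fold change of -0.11 (95% interval -0.23 to 0.01) when no filter was used.

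**Figure D4:**
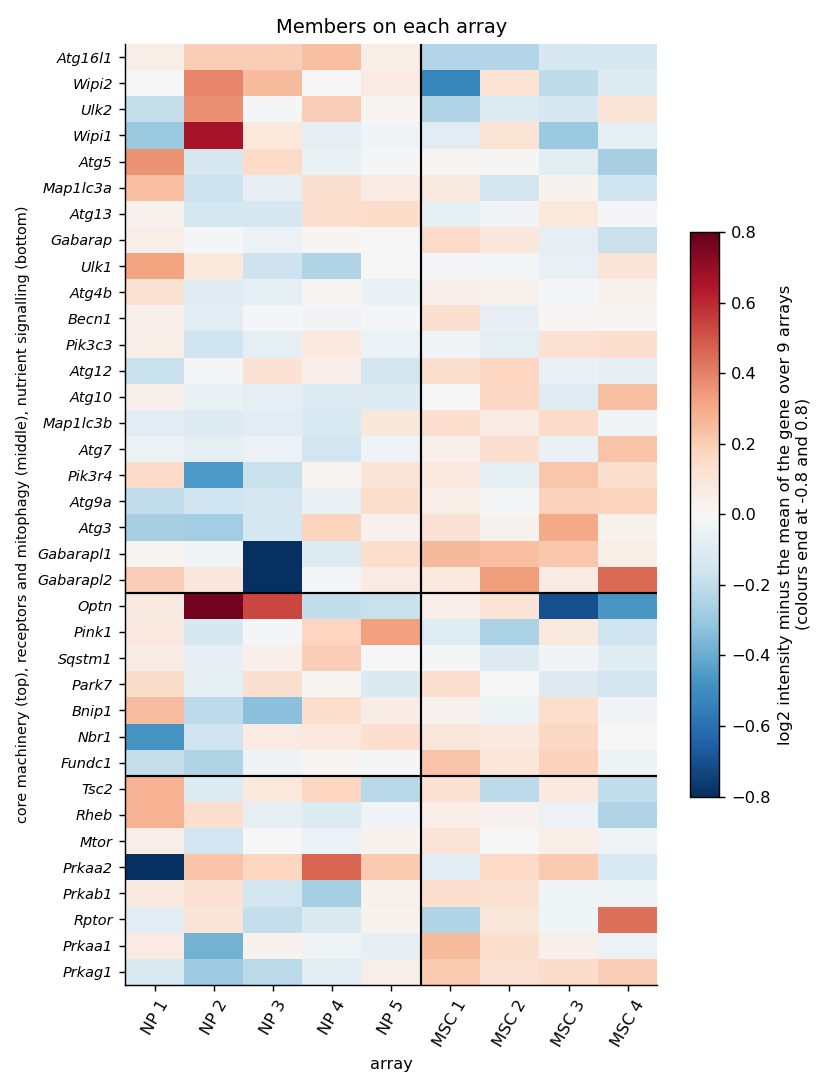
Log2 intensity of the 36 members on each array minus the mean of the gene over the 9 arrays, with NP arrays left and MSC arrays right of the vertical line and the roles separated by horizontal lines. The strongest colours belong to single arrays, such as NP 3 for Gabarapl1 and Gabarapl2, NP 1 for Prkaa2, and NP 2 and MSC 3 for Optn, while Atg16l1 changes colour at the line on every array.

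The median pooled SD between replicates was 0.15 over the members on the log2 scale, against 0.18 over all genes, a difference that was not tested. Prkaa2 (SD 0.53), Gabarapl2 (0.48) and Optn (0.42) were the most variable. NP replicate 2 was the lowest array for 11 of the 36 members, and NP replicate 1 and MSC replicate 1 were each the highest for 8. Over all genes, NP replicate 2 was the lowest for 19.7%, and NP replicate 1 and MSC replicate 1 were the highest for 14.1% and 9.14%.

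Related genes that could stand in for each other were compared through their log2 ratio on each array, for the 5 pairs with both genes measured. The ratio of Map1lc3a to Map1lc3b was 0.24 lower in MSC (difference of the log2 fold changes -0.24, standard error 0.09, exact two-sided permutation test over 126 splits, p = 0.0397, and 0.198 after Benjamini-Hochberg adjustment over the 5 pairs). With the probe of highest mean intensity for Map1lc3b, this difference was -0.07. For the other pairs the differences were 0.17 (Ulk1 minus Ulk2), -0.08 (Gabarapl1 minus Gabarapl2), 0.16 (Wipi1 minus Wipi2) and 0.10 (Prkaa1 minus Prkaa2), with standard errors of 0.19, 0.18, 0.15 and 0.40 and adjusted exact p-values of 0.635 to 0.905. The smallest p that this test can give is 0.00794.

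A further 90 genes of the same pathways were listed, of which 75 were tested. None was called at an FDR of 0.05 in limma, and at an unadjusted p under 0.05, 3 were higher (4%) and 5 lower (6.67%) in MSC, again near the background of all genes. Of the other core genes the smallest p-values belonged to Atg14, which brings the lipid kinase to the endoplasmic reticulum, with a log2 fold change of -0.30, to the lipid-transfer protein Atg2a with 0.17 and to the fusion protein Stx17 with -0.26. The difference of Atg14 was -0.51 within slide 1 and 0.00 within slide 2. Of the other receptors and mitophagy genes they belonged to Wdfy3 with -0.38, the mitochondrial ligase Mul1 with 0.15 and the endoplasmic reticulum receptor Fam134b with 0.35.

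Among the other nutrient-signalling genes Ddit4 (REDD1), which restrains mTOR complex 1 under low oxygen, had the smallest p. Its log2 intensity was 14.70 ± 0.23 (SD, n = 5) in NP and 14.05 ± 0.46 (SD, n = 4) in MSC, and its log2 fold change was -0.65 (standard error 0.21, limma FDR 0.335). That difference was -1.21 within slide 1 and -0.02 within slide 2, so that it was not present on both slides. Pdpk1 (PDK1), an upstream kinase of AKT, had -0.31, and Akt2 had 0.30. Of the transcription factors that drive autophagy genes, Foxo3 had -0.49 (standard error 0.20, limma FDR 0.392), Tfe3 -0.14 and Tfeb -0.07.

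**Figure D5:**
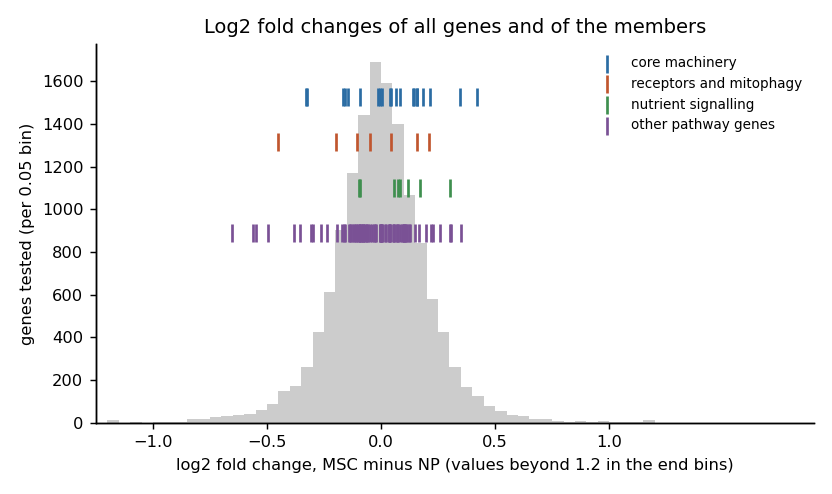
Histogram of the log2 fold change (MSC minus NP) of the 13935 genes tested, in bins of 0.05, with a tick for each member by role and for each of the 75 other pathway genes, placed in rows whose height carries no value. Members and pathway genes fall within the body of the histogram.

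Promoters of the members were searched for the sites of these factors, in windows from 250 bases before to 50 after the start site (RefSeq, GRCr8), which were at hand for 33 of the 39. The E-box CACGTG, the core of the sites bound by TFEB and TFE3, was found in 4 of them (12.1%), against 6.65% of 27457 windows of the same length. The longer CLEAR palindrome, which contains the E-box, was found in 0 members and in 0.277% of all windows. The FOXO motif GTAAACA was found on either strand in 1 member, Tsc1 (3.03%), against 3.76%. The E-box windows belonged to Atg3, Atg5, Pink1 and Rheb, with log2 fold changes of 0.21, -0.15, -0.20 and -0.09, and the stretches are printed to show the motif, in capitals, in its place.
Atg3, chr11:69159304-69159329, minus strand: ctacttctgtCACGTGtcccgggaga
Atg3, chr11:69159281-69159306, minus strand: agattcgagtCACGTGaggcctagga
Atg5, chr20:49380806-49380831, plus strand: gggcgctggcCACGTGggcgggtgac
Pink1, chr5:155826096-155826121, minus strand: gctacccctcCACGTGggttcaaagt
Pink1, chr5:155826033-155826058, minus strand: gttgcgccccCACGTGctgtgcagga
Rheb, chr4:11013287-11013312, plus strand: cgcgcgcggtCACGTGggtgtgttgt

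Markers of the kidney's cell types were set beside these values. The label of kidney was borne out by proximal tubule markers, all 10 of which passed the filter, such as Slc34a1 (the sodium-phosphate cotransporter) at 17.82 and Fbp1 at 18.77 mean log2 intensity. Markers of the distal nephron read higher in MSC kidneys at an unadjusted p under 0.05 in limma for 5 of 7 intercalated cell, 4 of 6 distal convoluted and connecting tubule, 3 of 7 principal cell and 3 of 7 thick ascending limb genes, with Egf of the last list at a log2 fold change of 1.37. Of the proximal tubule list 2 of 10 read higher at that threshold. The 5 podocyte markers tested all had values below 0 (median -0.33), none past that threshold, and of 6 endothelial and 6 leukocyte markers none passed it either. Averaged over the genes of the intercalated list, the log2 level relative to each gene's mean ran from -0.76 to 0.20 in NP and from 0.18 to 0.58 in MSC. For the podocyte list it ran from -0.29 to 0.41 in NP, and only MSC replicate 4, at -0.95, lay outside that range. Red cell markers were lower in MSC for 4 of 5 genes, with levels from 0.11 to 1.00 in NP and from -2.56 to 0.51 in MSC. Perirenal fat markers had values above 0 for 5 of 6 genes, 2 of them past that threshold. Their levels ran from -1.03 to 0.10 in NP and from -1.09 to 2.18 in MSC. Of the mesenchymal stromal cell list 1 of 7 was higher at that threshold, the collagen gene Col1a1 with a log2 fold change of 1.06, and 6 of 7 had values above 0. Its mean level ran from -0.70 to 0.50 in NP and from -0.22 to 0.39 in MSC. The part of these shifts in the values of the autophagy genes was not tested. Without MSC replicates 3 and 4, which had the highest fat levels, Atg16l1 had -0.38 and Prkag1 0.30, and the small values of Gabarap, Park7, Rptor and Rheb changed sign among the members whose array values were given above. Those 2 are also all the MSC arrays of slide 2, so that fat level and slide cannot be told apart here. No array was left out for its distal nephron or red cell levels.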

How the data were processed

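The members and all lists were chosen with earlier results of these data known. For each of 9 arrays there was a deposited scanner file, made by the authors with Agilent Feature Extraction 10.7.3.1 (probe positions on rn4), whose spot intensity values are pixel means, pixel medians and a processed signal, and a table of normalized log2 values, which the authors made by cyclic loess and which here served as an alternative. No per-sample column was left unused (0).

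Log2 intensities were normalized by cyclic loess in limma 3.58.1 (R 4.3.3), as the methods state. The use of mean pixel intensities, with controls included, no background subtraction and spots with outlier flags left out afterwards, was chosen here. The wording of the study's filter is open to more than one reading. Probes were retained here if, on 4 or more arrays, they exceeded 1.1 times the negative controls' 95th percentile (log2 scale), which left 15841 of 30367 gene probes. Spots of a probe were averaged, the probe of largest variance stood for its gene, and limma's linear model with empirical Bayes gave p-values, adjusted by Benjamini-Hochberg (FDR) over all 13935 genes. Pearson's r was at least 0.9999 against the deposited log2 values. The limma fit was tested on simulated gene values and the choice of probe on planted values, while normalization and the filter were not tested so. Between 65.6% and 74.3% of gene spots were well above background, none was saturated, and the number of arrays limits the precision. On slide 1 were NP 1, 2 and 3 and MSC 1 and 2, and on slide 2 the other arrays.

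Values on every array were given, in each role group, for the members with the 5 smallest p-values and the 2 highest mean intensities, and other probes where they differed in sign or by over 0.3. Array values of Gabarapl2 and Prkaa2 and the further probes of Atg10, Pink1, Tsc2, Gabarapl1, Gabarapl2 and Atg16l1 were added after they were seen. Names follow the files. By symbol 38 members matched RefSeq (GRCr8), 1 member is not reported here, and 52 of 56 probes matched by accession. Figures were drawn with matplotlib 3.10.9. Alternatives took other intensity columns, normalizations, filters, probe choices, variance models, blocks and left out each array in turn. One, without MSC replicates 3 and 4, was chosen after the data were seen.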

Additional observations from a re-analysis of the deposited data

Results flagged for a closer look

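In 5 of 80 groups of arrays, 1 array stood apart from the others of its group by Dixon's gap ratio (the gap to the nearest array over the range of the group), where chance would give about 1 in 20, or 4. NP replicate 3 was low for the Gabarapl2 probe (ratio 0.863) and for the Gabarapl1 probe (0.737), and so was its mean over the core machinery, which includes both genes (0.778, at -0.12 against -0.01 for the nearest array, on the log2 scale relative to each gene's mean). Over the other 19 core genes that mean was -0.02, so that this is no separate signal. NP replicate 1 was low for Prkaa2 (0.826, at 10.25 against 11.66). NP replicate 5 was high for Map1lc3b (0.851, at 13.98 against 13.80). Their causes were not tested.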

How the results depend on the processing

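No member passed the FDR under any of the 27 alternatives with a test, and Atg16l1, Wipi2, Prkag1 and Fundc1 kept their directions in all 29 settings, over FDRs of 0.116 to 0.899. Part of this was fixed in advance. Each had 1 passing probe, so that another choice among passing probes left its value as it was. For Atg16l1 and Prkag1, whose groups did not overlap, leaving out arrays or reading within a slide could not turn the sign. For Atg16l1 the processed signal gave -0.13 (FDR 0.899). Members higher at an unadjusted p numbered 4 with the processed signal, 5 with no filter, 1 with quantile normalization or 75th percentile scaling and 0 with median scaling, against 2. Members lower at that threshold numbered 1 to 3 over the alternatives, and 3 with the mean of probes or the probe of highest mean intensity, against 2. With array weights 2 genes of all those tested, no members among them, were called higher and 1173 lay lower at an unadjusted p, while 75th percentile scaling gave 396 lower and median scaling 287 higher. Median scaling also put the median of receptors and mitophagy at -0.14.

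Some small values changed sign. Park7 was 0.34 with the processed signal, 0.010 with array weights and 0.0031 within slide 1. Atg9a was -0.12 with median scaling and -0.062 with the probe of highest mean intensity. Gabarap was 0.027 with array weights, 0.00804 with the slide as a block and 0.13 within slide 1, Rheb was 0.011 with array weights, Rptor -0.016 within slide 1 and Nbr1 -0.025 within slide 2. Within slide 2 the median of all members was 0.0085 and that of nutrient signalling 0.034. Without MSC replicates 3 and 4, 535 genes were higher and 371 lower at an unadjusted p, with 1 member each way, and Gabarap was 0.12, Park7 0.050, Rptor -0.022 and Rheb 0.00342.

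Leaving out each array in turn gave 460 (without MSC replicate 3) to 1293 (without NP replicate 1) genes lower at an unadjusted p. Members higher at that threshold numbered 1 to 5, the highest without NP replicate 5, and members lower 1 to 2. The nutrient-signalling median ran from 0.065 to 0.12, Gabarap from -0.055 to 0.055 and Rptor from -0.00799 to 0.22. The difference of Gabarapl1 minus Gabarapl2 ran from -0.15 to 0.043, and that of Prkaa1 minus Prkaa2 from -0.045 to 0.43.

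With the replicate number as a block over numbers 1 to 4, the nutrient-signalling median was 0.12, and 875 genes were higher and 699 lower at an unadjusted p. This setting also leaves out NP replicate 5, and the median was the same 0.12 without that array and with no block. The deviations of same-numbered arrays had an r of 0.20, 0.33 and 0.05 for numbers 1, 2 and 4, which share a slide, and of -0.35 for number 3, whose arrays lie on different slides. Not every r was over 0.1, so the numbers were not taken to pair the kidneys. The causes were not tested. For dim probes, such as those of Uvrag, Tsc1 and Fundc1 and the kept probe of Atg9a, signal over background limits what could be read.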

Other observations

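The choice of probe moved the values of members and of other genes. Of the 11 members with several passing probes, 4 (36.4%) had probes on both sides of 0, and so had 590 of all 1741 such genes (33.9%). The median size of the log2 fold change over those 1741 genes was 0.16 with the probe of largest variance and 0.12 with the probe of highest mean intensity. The first was the larger in 623 genes and the smaller in 255, with the same probe taken in the other 863. Among the 11 members these counts were 5, 2 and 4, and the medians 0.15 and 0.10. The median spread between the probes of a gene was 0.165 over the 11 members and 0.124 over the 1741 genes. That difference was not tested.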
